A study of Rattus norvegicus with 30 samples.

Results

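The genes described here encode the eukaryotic translation initiation factors, their kinases and their binding inhibitors, measured in left ventricular tissue of the rat heart on 30 single-colour Agilent expression arrays. Members were the genes whose probe carries a transcript accession belonging to a rat symbol that begins with Eif and a digit from 1 to 6. Such probes numbered 58 and named 46 genes, and all 46 passed the filter on dim signals, among 18333 genes tested in all. The RefSeq table holds 60 protein-coding rat symbols of this form. For 14 of them, among them Eif2a, Eif3f, Eif3k, Eif4e2, Eif4g1 and Eif5, no probe was named here, and they were not analysed. A gene was represented by its brightest probe.

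All animals were male Sprague Dawley rats aged 16 to 18 weeks, fed either rodent chow or a diet high in sucrose, given for 8 to 10 weeks, which the series' design text equates with insulin resistance. The hearts of each diet formed 3 groups of 5 biological replicates. All hearts were excised under chloral hydrate anaesthesia into ice-cold buffer, and non-perfused hearts were then dissected and frozen at once. The other hearts were perfused outside the body in the working mode (the ventricle fills and ejects against a load) for 60 min with a Krebs-Henseleit buffer containing glucose at 25 mmol/L or the same concentration of mannitol, a sugar alcohol that served as the osmotic control. Ketone bodies (DL-beta-hydroxybutyrate at 10 mmol/L and acetoacetate at 1 mmol/L) and propionate at 2 mmol/L were in both buffers, so the mannitol hearts were not without fuel. The groups are therefore chow or sucrose diet, each non-perfused, mannitol-perfused or glucose-perfused. A perfused heart went through rewarming, reperfusion with a blood-free buffer and an hour of ejecting work that a non-perfused heart did not, and these steps cannot be told apart in this design.

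Translation initiation brings the small ribosomal subunit, the initiator methionyl-tRNA and a capped mRNA together at the start codon. The factor eIF2 carries the initiator tRNA with GTP, and eIF2B recharges it after each round. Kinases that phosphorylate the alpha subunit of eIF2 block this recharging under stress. The eIF4F complex recognises the cap through eIF4E, is held together by eIF4G and unwinds the leader through the helicase eIF4A, while eIF4E-binding proteins compete for eIF4E. In heart muscle this machinery is known for its control by nutrients, insulin and load through the kinase complex mTORC1. Much of the regulation is by phosphorylation, which an mRNA array does not measure.

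Levels are given as log2 of the processed signal minus the 75th percentile of the same array, so a difference of 1 is a doubling, and levels are compared between arrays for the same probe only. Arrays had between 48.8% and 75.4% of their probes well above background, and no probe was saturated. The negative control spots were noisy (SD over 8 intensity units) on 4 arrays, which were replicate 2 of the chow non-perfused group, replicates 1 and 5 of the sucrose non-perfused group and replicate 5 of the sucrose mannitol group. Of the members, 45 were well above background on all 30 arrays, the exception being Eif5a2 on 19. Of 5 slides, 4 held arrays of several groups, and replicate 1 of the sucrose mannitol group lay alone on the other. Its scan day also differed from that of all the other arrays. The upper row of the slides held every non-perfused and every chow mannitol array, while all glucose arrays and 4 of 5 sucrose mannitol arrays lay in the lower row. In both comparisons of glucose-perfused with non-perfused hearts, perfusion and row therefore cannot be told apart. The same holds for sucrose mannitol on the 4 shared slides, since its only upper-row array lay alone on its slide. The averaged difference sets perfused arrays of both rows against non-perfused arrays of the upper row only. Differences within the shared slides do not remove this mix of rows. The chow mannitol comparison lies within the upper row, and the members that passed in it were Eif4a1, Eif1ad and Eif2ak3.

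The markers fitted heart muscle: all 9 cardiomyocyte genes examined were above background on every array, and none passed when perfused hearts were averaged against non-perfused hearts, although Pln passed for sucrose mannitol (-0.34, limma adjusted p = 0.0101). All 3 atrial genes were above background on every array too, so these markers do not separate ventricle from atrium. Other cell types moved with perfusion in the same averaged comparison. Of 7 red cell genes tested, 6 were lower in perfused hearts, and the log2 of their summed level was 9.20 to 9.92 in non-perfused and 2.59 to 6.69 in perfused hearts. The summed level of 3 neutrophil genes, of which 2 were lower, was -2.98 to -1.24 against -5.20 to -2.20. Of the B and T cell and the platelet genes, 2 of 2 were lower in each list, with summed levels of -4.53 to -1.97 against -6.85 to -2.65 and of 0.14 to 0.82 against -0.26 to 0.49. All 4 macrophage genes were higher, with a summed level of 0.43 to 0.89 against 0.70 to 1.21. Single genes were higher among 4 smooth muscle genes and 5 fibroblast genes, and none passed among 4 endothelial and 3 atrial genes in the average, although the atrial gene Myl4 passed for sucrose mannitol (-0.20, adjusted p = 0.0298). The averaged differences of the other atrial genes were large but variable. They were -1.46 for Myl7 (SE 0.58, adjusted p = 0.0717) and -1.08 for Sln (SE 0.61, 0.231). Not all of the shifts that passed in the average were called in each diet. No macrophage gene passed in either chow comparison, where Mrc1 differed by 0.34 in each, against 1.55 and 1.18 on sucrose, and the platelet gene Pf4 did not pass on sucrose (adjusted p = 0.172 and 0.197). Their part in the initiation factor results was not tested. In bulk tissue, fewer cells of a type and less RNA per cell cannot be told apart.

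The first question of the design is what differs between perfused and non-perfused hearts of the same diet. Most initiation factor genes differed little. On average, the mRNA of the helicase Eif4a1 was about 1.5-fold higher in perfused hearts and that of Eif1ad about 1.4-fold lower. Eif1ad encodes a protein with an eIF1A-like domain, known for its part in maturation of the small ribosomal subunit. Both genes passed with the same direction in each of the 4 comparisons. Eif1a, Eif1 and the kinase gene Eif2ak3 were also higher, and the eIF2B subunit genes Eif2b5 and Eif2b2 and the joining factor Eif5b were lower. These 8 of 46 genes (17.4%), 4 in each direction, passed an adjusted p of 0.05 in limma when the 4 perfused groups were averaged and set against the average of both non-perfused groups. Of all genes tested, 22.3% passed, 10% higher and 12.3% lower, so the members' share was not above the background. At an unadjusted p under 0.05 there were 15 members, beside 32.8% of all genes. The median difference was -0.03 (log2) over the members and -0.04 over all genes, and the median size without its sign was 0.09 against 0.12.

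In the separate comparisons, 3 members (6.52%) passed for chow mannitol, beside 8.49% of all genes; 2 were higher and 1 lower, beside 4.83% and 3.65%. For chow glucose 4 (8.7%) passed, beside 9.5%, with 2 higher and 2 lower, beside 5.47% and 4.04%. For sucrose mannitol 4 (8.7%) passed, beside 11.2%, with 2 higher and 2 lower, beside 5.53% and 5.67%. For sucrose glucose 5 (10.9%) passed, beside 8.68%, with 3 higher and 2 lower, beside 5.54% and 3.14%. These shares lie near the background. At an unadjusted p under 0.05 there were 6, 8, 9 and 9 members, beside 19.5%, 20.5%, 23.2% and 20.4% of all genes. The mannitol and the glucose comparison of a diet share their 5 non-perfused arrays, and the average is built from the same 30 arrays, so the comparisons are not independent of each other. Members whose perfused and non-perfused arrays did not overlap numbered 3, 5, 4 and 7 in the same order, beside 9.51%, 9.44%, 9.23% and 8.14% of all genes. Over all 30 arrays there were 2 such members, Eif4a1 and Eif1ad, beside 2.66% of all genes. In the authors' deposited values, where 1140 of 18327 genes passed in the average against 4095 of 18333 here, 2 members passed, again Eif4a1 and Eif1ad.

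**Figure D1:**
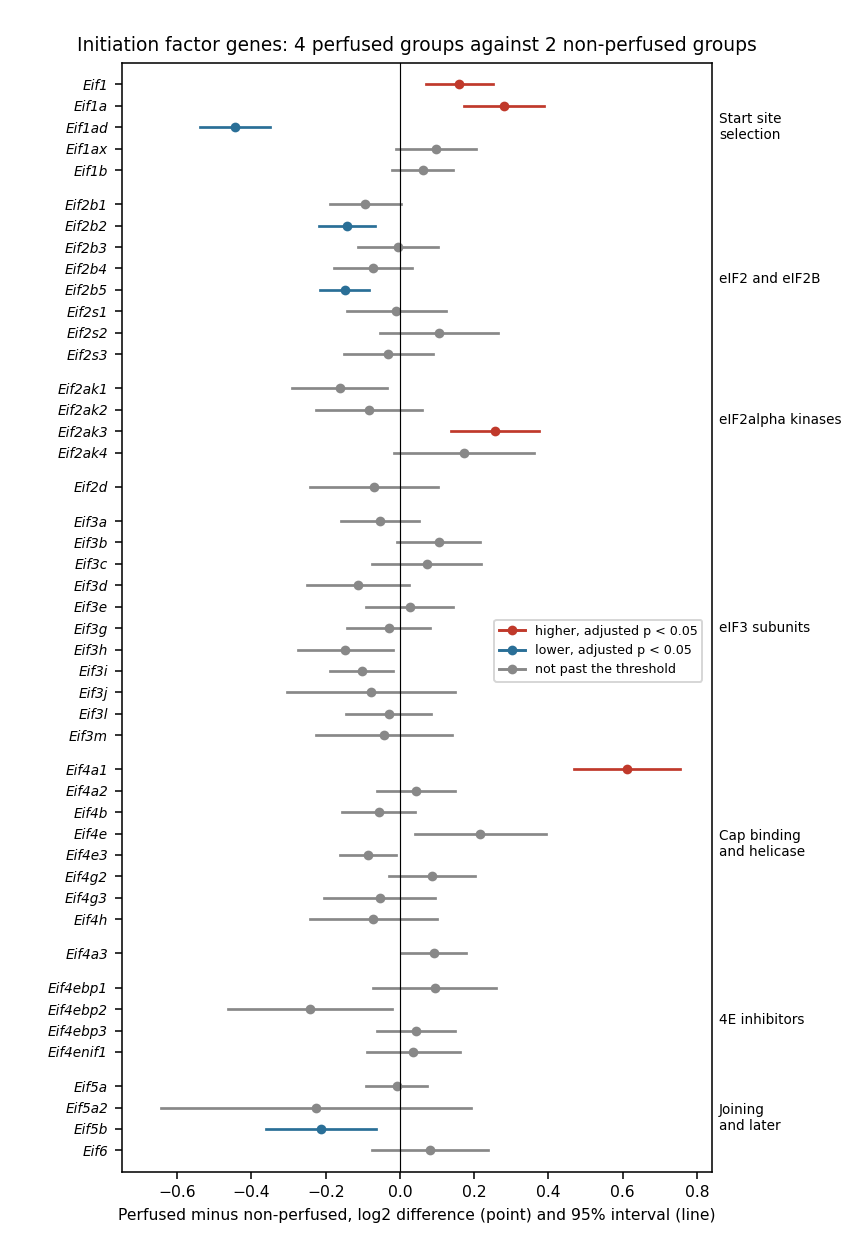
Difference between the mean of the 4 perfused and the mean of the 2 non-perfused groups (log2, x axis) for each of the 46 initiation factor genes (y axis), ordered by role. Points are limma estimates and lines 95% intervals. Eif4a1 (0.61) and Eif1ad (-0.44) lie farthest from 0, and the eIF3 genes all lie between -0.15 and 0.10.

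The genes named for eIF1 and eIF1A comprised 5 members, of which Eif1ad, related to eIF1A by its domain and not itself a scanning factor, had the smallest adjusted p. Its level was -1.14, -1.21, -1.40, -1.18 and -1.11 on the 5 chow non-perfused arrays, against -1.62, -1.61, -1.52, -1.70 and -1.69 with mannitol and -1.51, -1.47, -1.53, -1.62 and -1.49 with glucose. On the sucrose diet it was -1.27, -1.23, -1.01, -1.11 and -1.04 without perfusion, -1.79, -1.75, -1.57, -1.62 and -1.72 with mannitol and -1.50, -1.74, -1.48, -1.54 and -1.84 with glucose. Every one of the 20 perfused arrays lay below every one of the 10 non-perfused arrays. The averaged difference was -0.44 (SE 0.05), a 1.36-fold lower level with a ratio between 0.689 and 0.784 (95% interval; limma adjusted p = 1.47e-08). By comparison it was -0.42 for chow mannitol (adjusted p = 0.000254), -0.32 for chow glucose (0.0048), -0.56 for sucrose mannitol (4.43e-06) and -0.49 for sucrose glucose (3.43e-05). Within the 4 shared slides the averaged difference ran from -0.51 to -0.32. In the authors' deposited values the same 4 comparisons kept the direction, with differences of -0.38, -0.52, -0.51 and -0.37, but had adjusted p-values from 0.387 to 0.908.

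The promoter of Eif1ad is shown because the gene separated all perfused from all non-perfused arrays. The 250 bases before its start (RefSeq, GRCr8, chr1:212103465-212103714, plus strand, 5′ to 3′) read as follows, with matches to any of 6 short motifs in capitals.
Eif1ad: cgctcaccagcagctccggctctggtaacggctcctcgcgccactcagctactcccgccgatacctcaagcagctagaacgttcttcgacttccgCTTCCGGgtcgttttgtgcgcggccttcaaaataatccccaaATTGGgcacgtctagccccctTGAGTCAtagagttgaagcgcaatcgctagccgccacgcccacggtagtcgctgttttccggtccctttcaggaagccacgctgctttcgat
The capitals mark an ETS core (CTTCCGG) 155 bases before the start, a CCAAT box on the other strand (ATTGG) 113 bases before it and an AP-1 site (TGAGTCA) 92 bases before it.

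Eif1a encodes a form of eIF1A, which binds the decoding site of the small subunit together with eIF1 and keeps it open for scanning. Its level was -0.84 to -0.47 (median -0.72) on the non-perfused arrays and -0.65 to -0.06 (median -0.40) on the perfused arrays. Of the 20 perfused arrays 13 lay above all non-perfused ones, and the remaining 7 overlapped with them. The averaged difference was 0.28 (SE 0.05), 1.21-fold (95% interval 1.13 to 1.31, adjusted p = 0.000182). In the separate comparisons it was 0.21 for chow mannitol (adjusted p = 0.15), 0.28 for chow glucose (0.0335), 0.28 for sucrose mannitol (0.0334) and 0.35 for sucrose glucose (0.00679). The chow glucose call ended without chow non-perfused replicate 2, 3 or 4 or chow glucose replicate 1, 4 or 5 (adjusted p 0.0527 to 0.132), and the sucrose mannitol call without sucrose non-perfused replicate 2, 3 or 5 or sucrose mannitol replicate 3 or 4 (0.0663 to 0.105). Both also ended with normexp, an alternative background correction (0.251 and 0.231), without a filter on dim probes (0.0618 and 0.0613), with only their own groups fitted (0.182 and 0.105), without the noisy arrays (0.111 and 0.124) and in the authors' deposited values (0.779 and 0.502). The sucrose glucose call ended with normexp (0.26, adjusted p = 0.178) and in the authors' deposited values (0.43, 0.319). The averaged call did not depend on any single array, but the authors' deposited values gave 0.31 with an adjusted p of 0.0686.

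Eif1, the partner that guards against wrong start codons, had levels of 4.06 to 4.31 (median 4.20) without perfusion and 4.15 to 4.55 (median 4.35) with it. Again 13 of the 20 perfused arrays lay above the whole non-perfused range. Perfused hearts were 0.16 higher on average (SE 0.04, adjusted p = 0.00842), while none of the separate comparisons passed, with differences of 0.13, 0.17, 0.13 and 0.21 and adjusted p-values of 0.0672 or more. For sucrose glucose it passed with the slide as a fixed block (adjusted p = 0.0342) or a random block (0.04) and with quantile normalization (0.0133), which also gave a call for sucrose mannitol (0.0458). The averaged call ended with normexp (0.12, adjusted p = 0.306) and in the authors' deposited values (0.19, adjusted p = 0.369).

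The remaining genes of this group did not pass in the average. Eif1ax, the X-linked eIF1A gene, had an averaged difference of 0.10 (adjusted p = 0.202). It passed narrowly for sucrose glucose (0.27, adjusted p = 0.0496), the fifth call of that comparison, named here after its values were seen. On those arrays its level was 0.08 to 0.26 against -0.43 to 0.07 without perfusion. That call ended when any of 25 of the 30 arrays was left out, and its second probe gave -0.04 (adjusted p = 0.898). Eif1b, a close relative of Eif1, had an averaged difference of 0.06 (adjusted p = 0.305). Eif1 and Eif1b, and Eif1a and Eif1ax, are similar in sequence, and how far their probes bind each other's transcripts was not tested.

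**Figure D2:**
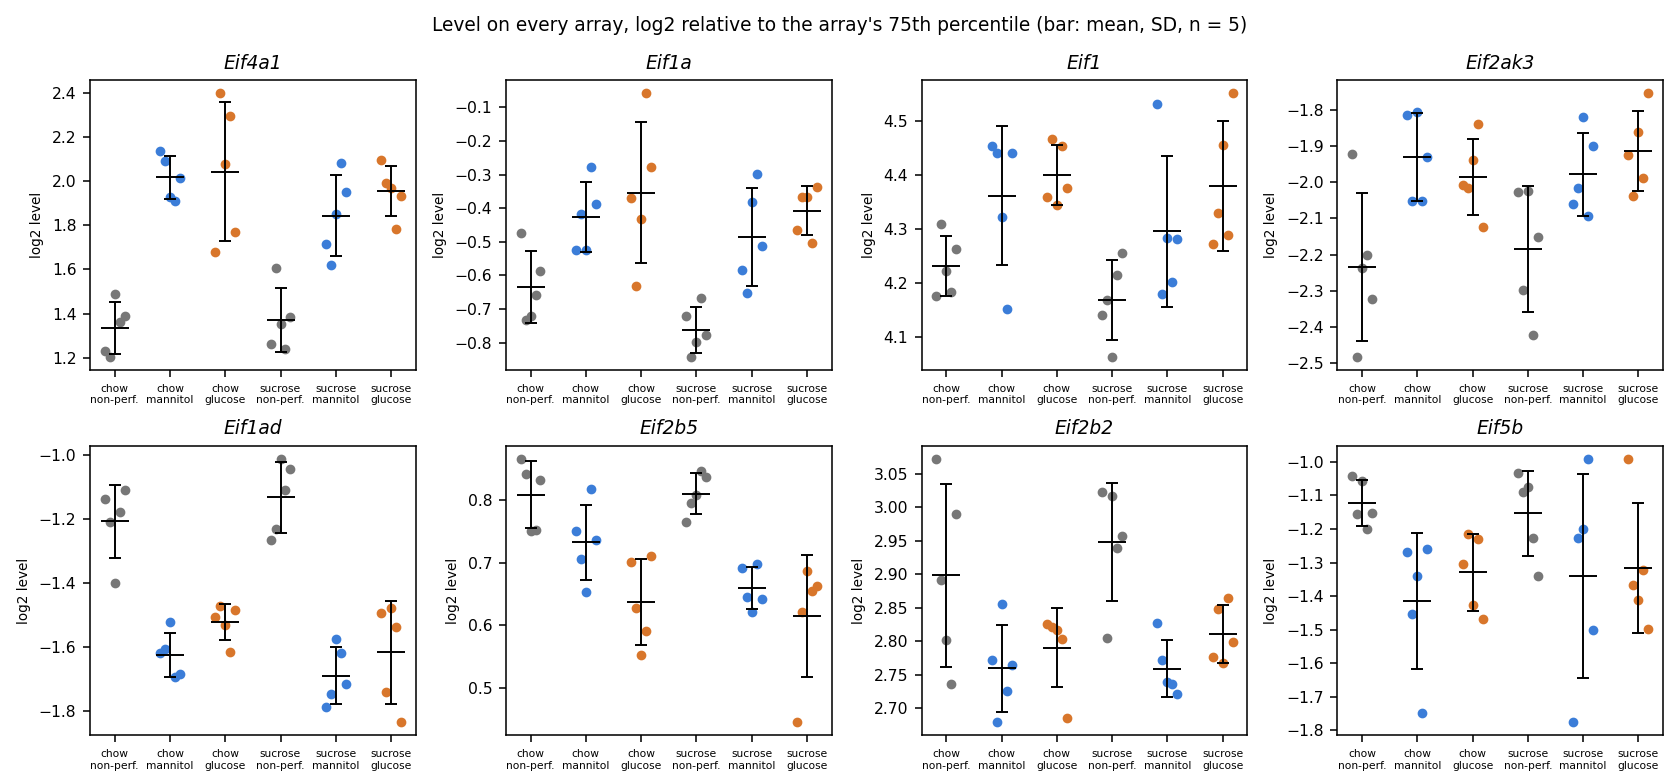
Level of the 8 initiation factor genes that passed in the averaged comparison, on each of the 30 arrays (log2 relative to the array's 75th percentile, y axis), by group (x axis). Bars give the group mean and SD (n = 5), with grey for non-perfused, blue for mannitol and orange for glucose. All 20 perfused arrays lie above all 10 non-perfused arrays for Eif4a1 and below them for Eif1ad, while the other 6 genes overlap.

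The initiator tRNA carrier eIF2 and its recharging factor eIF2B were represented by 8 genes. Of these, 2 were lower in the average and none higher, beside 12.3% and 10% of all genes, in a group too small to read a share from. Their differences ran from -0.15 to 0.11 with a median of -0.05. Both lower genes belong to eIF2B. Eif2b5 encodes its catalytic epsilon subunit. Its level was 0.75 to 0.87 (median 0.82) without perfusion and 0.45 to 0.82 (median 0.66) with it, and 18 of 20 perfused arrays lay below every non-perfused one. The averaged difference was -0.15 (SE 0.03), 1.11-fold lower with a ratio between 0.862 and 0.944 (adjusted p = 0.000924). It was -0.08 for chow mannitol (adjusted p = 0.479), -0.17 for chow glucose (0.0342), -0.15 for sucrose mannitol (0.0633) and -0.20 for sucrose glucose (0.0152). Within the 4 shared slides the average ran only from -0.18 to -0.12. The chow glucose call ended without any of chow non-perfused replicates 1, 2 and 5 or chow glucose replicates 2, 3 and 4 (adjusted p 0.0646 to 0.0989), and the sucrose glucose call without sucrose glucose replicate 1 (-0.15, adjusted p = 0.0655), the lowest of all arrays. Both calls also ended with normexp (0.404 and 0.254), in the authors' deposited values (-0.27, 0.401 and -0.12, 0.999), with only their own groups fitted (0.172 and 0.154) and without the noisy arrays (0.0966 and 0.0663). The chow glucose call further ended without a filter on dim probes (0.0709) and with the replicate block (0.0542), while the sucrose mannitol difference passed with the slide as a random block (0.0375). The averaged call ended with normexp (-0.14, adjusted p = 0.0578) and in the authors' deposited values (-0.14, 0.396).

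Eif2b2, the beta subunit of eIF2B, was at 2.74 to 3.07 (median 2.95) in non-perfused and 2.68 to 2.86 (median 2.77) in perfused hearts. The ranges overlapped, with 5 of 20 perfused arrays below all non-perfused ones. On average it fell by 0.14 (SE 0.04, adjusted p = 0.00496). Of the separate comparisons it passed for sucrose mannitol (-0.19, adjusted p = 0.0406) and not for chow mannitol (-0.14, 0.184), chow glucose (-0.11, 0.333) or sucrose glucose (-0.14, 0.188). The sucrose mannitol call ended without sucrose non-perfused replicate 1, 3, 4 or 5 or sucrose mannitol replicate 2, 3, 4 or 5 (adjusted p 0.0622 to 0.098). It also ended with quantile normalization (-0.14, 0.173), with normexp (0.23), in the authors' deposited values (-0.09, 1), without a filter on dim probes (0.0788), with the replicate block (0.0541), with only its own groups fitted (0.175) and without the noisy arrays (-0.15, 0.286). Without the 4 arrays of noisy controls the averaged value was -0.13 with an adjusted p of 0.0521, and in the authors' deposited values it was -0.12 (0.498). The other eIF2B subunits, Eif2b1 (-0.09, adjusted p = 0.164), Eif2b3 (-0.004, 0.973) and Eif2b4 (-0.07, 0.348), did not pass. Nor did the eIF2 subunits Eif2s1 (alpha, -0.01, 0.949), Eif2s2 (beta, 0.11, 0.378) and Eif2s3 (gamma, -0.03, 0.778).

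The kinases that phosphorylate eIF2 alpha each answer a different stress, and 1 of the 4 was higher in perfused hearts in the average, beside 10% of all genes. Eif2ak3 encodes PERK, the kinase of the endoplasmic reticulum that senses unfolded protein. Its level was -2.48 to -1.92 (median -2.22) without perfusion and -2.12 to -1.76 (median -1.96) with it, and 7 of 20 perfused arrays lay above the non-perfused range. On average it was 0.26 higher (SE 0.06, 95% interval 0.14 to 0.38, adjusted p = 0.00139), a 1.19-fold difference, with 0.20 to 0.35 within the 4 shared slides. It was 0.30 for chow mannitol (adjusted p = 0.0429), 0.25 for chow glucose (0.105), 0.21 for sucrose mannitol (0.179) and 0.27 for sucrose glucose (0.0741). The chow mannitol call ended without chow non-perfused replicate 2, 3, 4 or 5, chow mannitol replicate 1, 3 or 5, or chow glucose replicate 1 (adjusted p 0.0502 to 0.14). It also ended with normexp (0.16, adjusted p = 0.504), quantile normalization (0.062), median scaling (0.0548), no filter on dim probes (0.0771), only its own groups fitted (0.145), without the noisy arrays (0.24, 0.15) and in the authors' deposited values (0.31, 1). The averaged call ended with normexp (0.17, adjusted p = 0.0525) and in the authors' deposited values (0.27, 0.389).

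The other eIF2 alpha kinases did not pass in any comparison as fitted. Eif2ak1, the haem-regulated kinase HRI, ranged from 1.43 to 1.81 without and from 1.22 to 1.77 with perfusion, and its differences were -0.08, -0.17, -0.18 and -0.22 (chow mannitol, chow glucose, sucrose mannitol, sucrose glucose), with an average of -0.16 (adjusted p = 0.0622). With the slide as a fixed block this average was -0.18 with an adjusted p of 0.00148, and the sucrose mannitol (0.0166) and sucrose glucose (0.03) differences passed as well. The average of Eif2ak1 also passed with a random slide block, median scaling, normexp and only genes above background on all 30 arrays. It passed too without the array alone on its slide and without some other single arrays. Eif2ak2, the double-stranded RNA sensor PKR, had differences of -0.02, -0.09, -0.06 and -0.17 and an average of -0.08 (adjusted p = 0.454). Eif2ak4, the amino acid sensor GCN2, had differences of 0.23, -0.02, 0.26 and 0.22 and an average of 0.17 (adjusted p = 0.198). The 95% interval of that average, -0.02 to 0.36, leaves room for a difference as large as that of Eif2ak3.

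The largest group, eIF3, is the scaffold that joins the small subunit to the mRNA. None of its 11 measured genes passed in the average, beside 22.3% of all genes, in a group too small to read a share from. Averaged differences ran from -0.15 for Eif3h to 0.10 for Eif3b with a median of -0.04. The smallest limma adjusted p was 0.0756, for Eif3i (-0.10). With the slide as a fixed block, Eif3b, Eif3h and Eif3i passed. Eif3h and Eif3i also passed with a random slide block and without some single arrays. Eif3i passed too with median scaling and without the noisy arrays. For Eif3h the second probe of the gene had the opposite sign (0.09, adjusted p = 0.271). Eif2d, which can deliver the initiator tRNA without GTP, had an averaged difference of -0.07 (adjusted p = 0.626).

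In the cap-binding and helicase group 1 of 8 genes passed in the average, beside 22.3% of all genes. Eif4a1 encodes the main helicase of the cap complex. Its level was 1.23, 1.20, 1.49, 1.36 and 1.39 on the chow non-perfused arrays, 2.14, 2.09, 1.93, 1.91 and 2.01 with mannitol and 1.68, 2.40, 2.08, 2.30 and 1.77 with glucose. On the sucrose diet it was 1.26, 1.61, 1.35, 1.24 and 1.39 without perfusion, 1.72, 1.62, 1.85, 2.08 and 1.95 with mannitol and 2.10, 1.99, 1.97, 1.78 and 1.93 with glucose. No perfused array was as low as any non-perfused array, although the highest non-perfused value (1.61, sucrose replicate 2) and the lowest perfused value (1.62, sucrose mannitol replicate 2) nearly met. The averaged difference was 0.61 (SE 0.07), 1.53-fold (95% interval 1.38 to 1.69, adjusted p = 1.13e-07). It was 0.68 for chow mannitol (adjusted p = 0.000128), 0.71 for chow glucose (6.28e-05), 0.47 for sucrose mannitol (0.00604) and 0.58 for sucrose glucose (0.000807). Within the 4 shared slides the average ran from 0.49 to 0.78. Without the 4 arrays of noisy controls the sucrose mannitol difference was 0.42 with an adjusted p of 0.0902, and in the authors' deposited values it was 0.51 (0.137), with 0.56 (0.0732) for chow glucose. The second probe of Eif4a1, of nearly equal brightness, gave an average of 0.52 (SE 0.07, adjusted p over all probes = 2.67e-06) and passed in each of the 4 comparisons.

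The promoter of Eif4a1 is shown as that of the other gene whose arrays did not overlap. It covers the 250 bases before its start (RefSeq, GRCr8, chr10:54888603-54888852, minus strand, printed 5′ to 3′ along the gene), with matches to the same 6 motifs in capitals.
Eif4a1: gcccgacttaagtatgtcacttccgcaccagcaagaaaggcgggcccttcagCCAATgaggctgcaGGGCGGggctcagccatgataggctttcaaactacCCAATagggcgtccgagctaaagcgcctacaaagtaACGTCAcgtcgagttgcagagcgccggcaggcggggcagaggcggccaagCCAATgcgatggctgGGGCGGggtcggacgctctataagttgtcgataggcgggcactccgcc
It holds CCAAT boxes 198, 149 and 63 bases before the start, GC boxes (GGGCGG) 184 and 48 bases before it and 6 letters of the cyclic AMP response element, CRE (ACGTCA), without the full element, 113 bases before it.

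The paralog Eif4a2, whose product can replace that of Eif4a1 in the cap complex, differed by 0.04 (95% interval -0.06 to 0.15, adjusted p = 0.617), an interval that lies below that of Eif4a1. Eif4a3, the related helicase of the exon junction complex, differed by 0.09 (adjusted p = 0.135). The cap-binding gene Eif4e differed by 0.22 on average (adjusted p = 0.0725, 0.04 on its second probe). Its interval of 0.04 to 0.39 did not include 0. Eif4e passed with the slide as a fixed or random block, with normexp and without some single arrays. The helicase cofactors Eif4b (-0.06, 0.445) and Eif4h (-0.07, 0.61) and the scaffold genes Eif4g2 (0.09, 0.308) and Eif4g3 (-0.05, 0.666) did not pass. Eif4e3, a divergent cap-binding gene, gave -0.09 (adjusted p = 0.101) on its brightest probe. It passed with the mean of its probes, with the slide as a fixed block and without the array alone on its slide.

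None of the 4 genes for eIF4E-binding inhibitors passed in any comparison as fitted. In the average 22.3% of all genes passed, and 4 genes are too few to read a share from. Eif4ebp1 and Eif4ebp2 encode the repressors that mTORC1 inactivates by phosphorylation. Eif4ebp1 ranged from 3.73 to 4.20 without and from 3.66 to 4.44 with perfusion, and its differences were 0.03, 0.03, 0.16 and 0.16 in the order above (average 0.09, adjusted p = 0.472). Eif4ebp2 ranged from 0.75 to 1.63 without and from 0.33 to 1.37 with perfusion, and all 4 differences were below 0 at -0.20, -0.23, -0.20 and -0.34 (average -0.24, adjusted p = 0.111). Its averaged interval of -0.46 to -0.02 is among the widest of the members, and with the slide as a fixed block it passed (-0.21, adjusted p = 0.0458). Eif4ebp3 gave 0.03, 0.10, -0.02 and 0.06 (average 0.04, adjusted p = 0.62). Eif4enif1, which carries eIF4E into the nucleus, gave 0.05, 0.12, -0.16 and 0.13 (average 0.04, adjusted p = 0.748).

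Of the 4 genes that act at subunit joining or later, 1 was lower in the average, beside 12.3% of all genes. Eif5b encodes the GTPase that joins the large subunit. Its level was -1.34 to -1.03 (median -1.12) without perfusion and -1.78 to -0.99 (median -1.33) with it. Of the 20 perfused arrays, 10 lay below the non-perfused range and 2 above it. Perfused minus non-perfused was -0.21 on average (SE 0.07, adjusted p = 0.0328), and none of the separate differences of -0.29, -0.21, -0.19 and -0.16 passed (adjusted p 0.141 to 0.477). The averaged call ended without chow non-perfused replicate 1 or 3 or sucrose non-perfused replicate 1, 2 or 3 (adjusted p 0.0561 to 0.0642), without a filter on dim probes (0.0555), with normexp (0.153), in the authors' deposited values (0.758) and without the 4 noisy arrays (0.0824). Eif5a, the hypusine-containing factor that helps ribosomes through difficult sequences, differed by -0.01 (95% interval -0.09 to 0.07), and Eif6, which keeps the subunits apart, by 0.08 (-0.07 to 0.24). Eif5a2 was the dimmest member, and its difference of -0.23 had the widest interval, -0.64 to 0.19.

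The precision of the arrays was sufficient to bound most of the differences that did not pass. Of the 38 uncalled members, 33 had an averaged 95% interval wholly within 0.3 of 0, a 1.23-fold difference, and 37 had one within 0.5, with Eif5a2 the exception. Over all members 78.3% of the intervals lay within 0.3, against 42.9% over all genes, and the median SE was 0.06 against 0.09. The differences in the chow and the sucrose diet, which share no array, had a Pearson correlation across the 46 genes of 0.78 with mannitol and 0.71 with glucose, against 0.70 and 0.79 across all genes. Without Eif4a1 and Eif1ad it was 0.67 and 0.54 across 44 genes. These describe genes of the same arrays, which are not independent replicates.

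The second question is whether glucose, compared with its osmotic control, changes these genes. None of the 46 passed in limma in either diet. On chow 0 members had an unadjusted p under 0.05 (all genes 3.9%), and none of the genes tested passed, a percentage of 0. On sucrose 3 members had an unadjusted p under 0.05 (all genes 5.06%), and 0.00545% of all genes passed, which is 1 gene. The smallest p on chow belonged to Eif2b5 (-0.10, adjusted p = 0.999), Eif3l (0.16) and Eif2ak4 (-0.25). On sucrose it belonged to Eif4enif1 (0.29, adjusted p = 0.97), Eif2s1 (0.26, 0.97) and Eif1b (-0.14, 0.973). For Eif4a1 the glucose against mannitol difference was 0.03 (95% interval -0.21 to 0.26) on chow and 0.11 (-0.12 to 0.35) on sucrose, and for Eif1ad it was 0.10 (-0.05 to 0.26) and 0.07 (-0.08 to 0.22). On chow, buffer and slide row cannot be told apart.

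The third question is whether the diet matters. No member passed between the diets without perfusion, with mannitol or with glucose, where 0%, 0.00545% and 0% of all genes passed. At an unadjusted p under 0.05 there were 1, 3 and 0 members, beside 3.34%, 7.94% and 4.39% of all genes. Without perfusion the smallest p values were those of Eif4ebp3 (0.20 higher on sucrose), Eif3l (0.15) and Eif1a (-0.13), all with an adjusted p of 1. With mannitol they were those of Eif2b3 (0.26, adjusted p = 0.45), Eif2s1 (-0.28, 0.507) and Eif4g3 (0.26, 0.607). With glucose they were those of Eif1ax (0.17), Eif4ebp3 (0.17) and Eif3e (0.14), with an adjusted p of 0.999. All chow mannitol arrays lay in the upper row and most sucrose mannitol arrays in the lower row. Among mannitol hearts, diet and slide row therefore cannot be fully told apart.

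Nor did the perfusion difference itself differ between the diets for any member. The interaction of diet with mannitol perfusion and that with glucose perfusion gave 0 members and 0% of all genes, with 1 member each at an unadjusted p under 0.05 (all genes 6.17% and 2.62%). With mannitol the smallest p belonged to Eif2b3 (0.26, adjusted p = 0.791), Eif2s3 (0.24) and Eif3g (-0.20), and with glucose to Eif1ax (0.30), Eif1ad (-0.17) and Eif3e (0.21). For Eif4a1 the interaction was -0.21 with mannitol (95% interval -0.54 to 0.12) and -0.12 with glucose (-0.45 to 0.21), and for Eif1ad it was -0.14 (-0.35 to 0.07) and -0.17 (-0.39 to 0.04). The intervals of Eif4a1 reach sizes near that of its perfusion difference on sucrose, so a moderate dependence on diet was not detectable with 5 arrays a group. In the mannitol interaction, diet and slide row cannot be fully told apart either, because the mannitol arrays of the diets lay mostly in different rows.

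**Figure D3:**
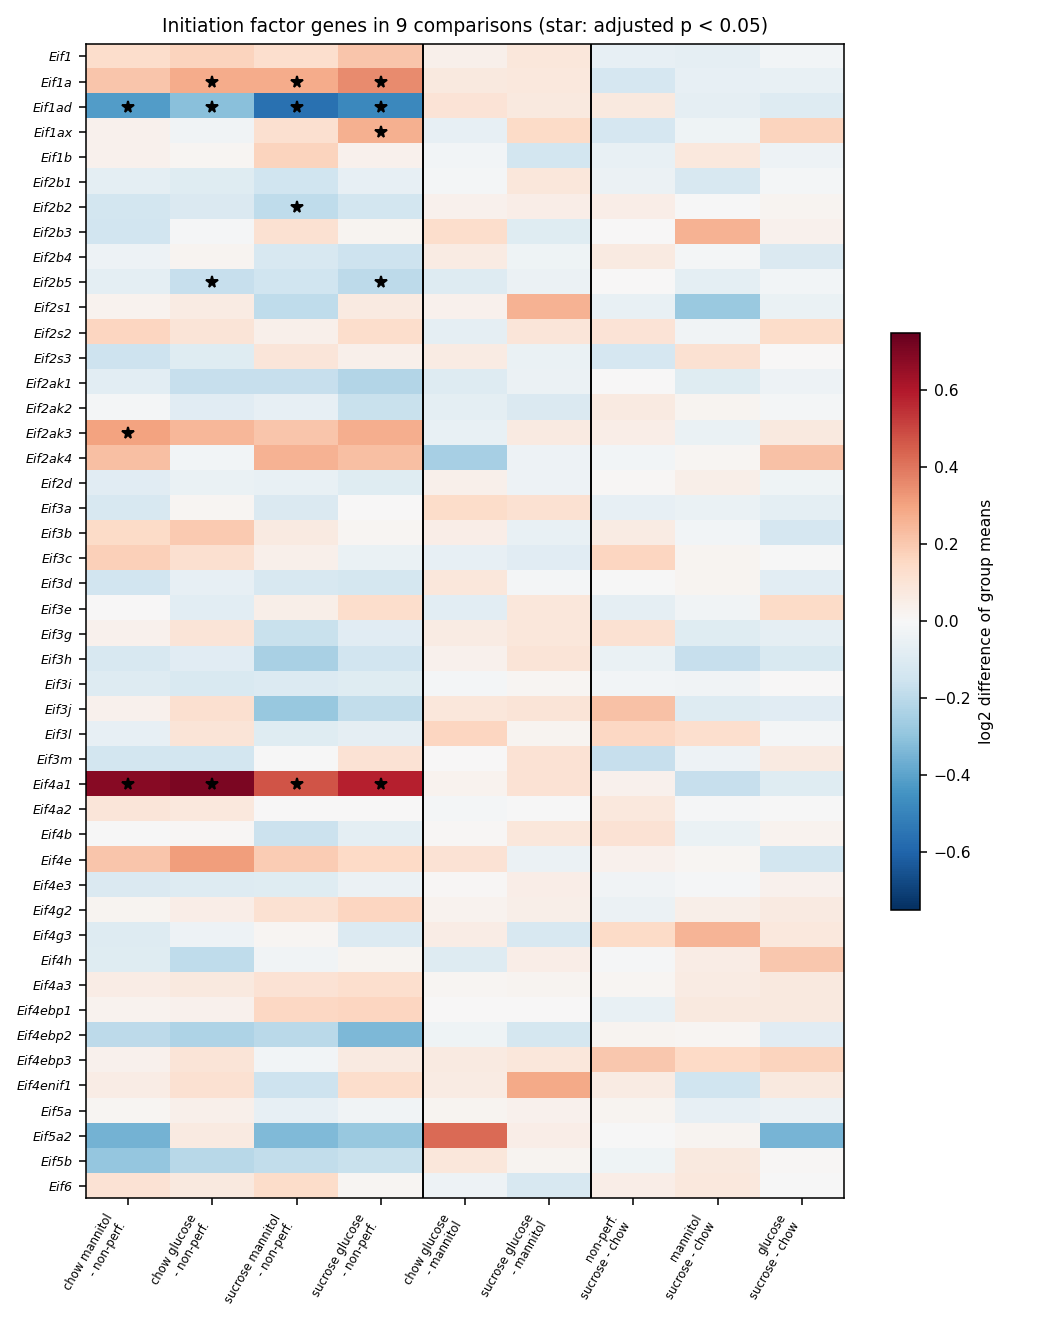
Log2 difference of group means (colour) for the 46 initiation factor genes (rows, ordered by role) in 9 comparisons (columns): perfused minus non-perfused for each diet and buffer, glucose minus mannitol for each diet, and sucrose minus chow for each heart treatment. Stars mark an adjusted p under 0.05; they number 3, 4, 4 and 5 in the perfusion columns and 0 in the other columns, and Eif4a1 and Eif1ad carry one in each perfusion column.

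Of the members, 35 were measured by a single probe and 11 by several, with 12 further probes in all, of which 8 had the same sign as the brightest probe in the averaged comparison. For Eif4a1 both probes passed. For Eif4e3 only the second probe passed: this probe, slightly dimmer, gave -0.25 (SE 0.04, adjusted p = 2.07e-05) against -0.09 (SE 0.04) on the brightest, and passed for chow glucose (-0.22, adjusted p = 0.0245), sucrose mannitol (-0.32, 0.00106) and sucrose glucose (-0.32, 0.00109). The second probe of Eif2ak2 gave -0.31 (SE 0.12, adjusted p = 0.0532) against -0.08, and that of Eif3h had the opposite sign. Where the probes lie in the transcripts was not examined, since the files give no probe sequence.

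**Figure D4:**
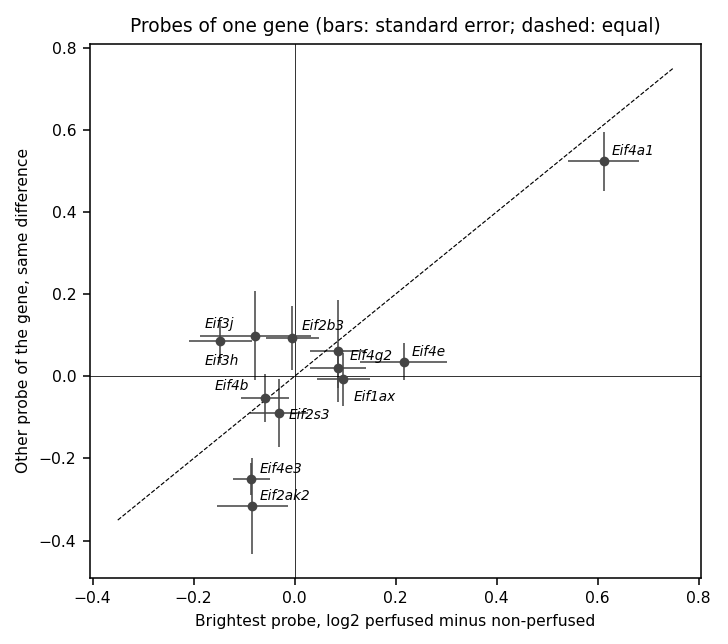
Averaged perfused minus non-perfused difference (log2) on the brightest probe of a gene (x axis) and on each further probe (y axis), for the 11 initiation factor genes with several probes; bars are standard errors and the dashed line marks equal values. Eif4a1 lies near the line at 0.61 and 0.52, Eif4e3 lies below it at -0.09 and -0.25, and Eif3h has opposite signs at -0.15 and 0.09.

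Promoter windows of 250 bases before the start were found for 41 of the 46 members, including all 8 that passed in the average, and were searched on both strands for 6 motifs with no match allowed to differ in a letter. All 33469 windows of the same length, not limited to the genes tested here, stood beside them. These were counted by window and the members by gene, so the shares compare unlike sets. Whether members differ from other genes expressed in the heart was not tested. A GC box (GGGCGG or CCGCCC) was found for 27 members (65.9%, all windows 30.5%) and an ETS core (CCGGAAG or CTTCCGG) for 16 (39.0% against 7.27%). A CCAAT box (CCAAT or ATTGG) was in 11 (26.8% against 34.0%) and the partial CRE (TGACGT or ACGTCA) in 6 (14.6% against 6.95%). An AP-1 site (TGAGTCA or TGACTCA) was in 1 window, that of Eif1ad (2.44% against 4.05%), and an ATF4 composite core (TGATGCAA or TTGCATCA) in 1 (2.44% against 0.693%), of a gene that did not pass. Of the 8 genes that passed, 5 held a CCAAT box (Eif1, Eif1ad, Eif2ak3, Eif2b2 and Eif4a1), 4 a GC box, 3 an ETS core and 1, Eif4a1, the partial CRE. The gene record of Eif2ak3 begins inside its window, so the last part of that window does not lie before the gene. No matches overlap in the printed windows, and a match describes the sequence only.

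Beyond the initiation factors, 49 of 56 genes of translational control were tested, from a list of mTORC1 components, kinases and phosphatases of initiation, poly(A)-binding, recycling, elongation and termination factors. In the average 7 were higher and 9 lower (32.7%, beside 22.3% of all genes), with a median of -0.02 against -0.04 over all genes. The list was chosen with earlier results of these data known, so its larger share is no evidence about translational control genes as a class. Of 6 genes that act on eIF2 alpha phosphorylation, 3 were higher and none lower, beside 10% and 12.3% of all genes. Ppp1r15a, the stress-induced GADD34 subunit that directs a phosphatase to eIF2 alpha, was 5.34-fold higher (2.42, SE 0.09, adjusted p = 8.58e-18) and passed in all 4 comparisons with differences of 2.25 to 2.56. Impact, an inhibitor of GCN2 activation, was 0.43 higher (adjusted p = 6.86e-09) and also passed in all 4.

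Among 15 genes of mTORC1 and its inputs, 2 were higher and 3 lower in the average, beside 10% and 12.3% of all genes. Rheb, the GTPase that activates mTORC1, rose by 0.25 (adjusted p = 7.42e-05), and Sesn2, an inhibitor of mTORC1 under amino acid shortage, rose by 0.98 (0.000698). Ddit4, which encodes the inhibitor REDD1, fell by 0.49 (adjusted p = 8.38e-05), and the mTORC1 subunit genes Rptor and Mlst8 fell by 0.16 (0.000191) and 0.30 (0.00389). Mknk2, a kinase of eIF4E, rose by 0.36 (adjusted p = 0.000686). Eef1e1, whose product belongs to the aminoacyl-tRNA synthetase complex despite its elongation factor name, fell by 0.28 (adjusted p = 0.000789), and Mtif3, a mitochondrial initiation factor, fell by 0.34 (0.0106). In the separate perfusion comparisons Ddit4 passed in all 4 and Rptor in all but chow glucose. Rheb passed in both glucose comparisons and Eef1e1 in both mannitol comparisons. Sesn2 passed only for sucrose mannitol, and Mlst8, Mknk2 and Mtif3 only for chow glucose. Single genes of this list were not followed through the alternatives in processing. As for the initiation factors, 0 genes of this list passed between the buffers, between the diets or in an interaction.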

How the data were processed

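The deposited files are single-colour Agilent scanner tables for 30 arrays. Their main column is an intensity that, per the file headers, was corrected for background and for trends across the array and held above a floor, without any scaling from array to array. Feature Extraction is given as 11.0.1.1 in the headers and as 10.3 in the submitters' processing notes. The authors' deposited series table holds log2 values whose scaling between arrays is not given in the sources used here; it served as an alternative.

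Spots of a probe were averaged after outlier spots were left out (264 probe and array pairs kept all spots). Log2 signals had each array's 75th percentile subtracted. Probes were named by transcript accession through the RefSeq table (GRCr8), for 18355 of 30367 probes, and the brightest probe stood for a gene. Genes detected above background in 4 or more of the 5 arrays of any group were tested with limma 3.58.1 in R 4.3.3 (data.table, version 1.17.8, and jsonlite 2.0.0), with 1 mean for each of 6 groups, 12 comparisons and Benjamini-Hochberg adjustment over all 18333 genes (threshold 0.05). Second probes were adjusted over 20606 probes. The number of arrays limits the precision. The fit was tested on simulated data with independent noise and no slide or row effect, so that test has no bearing on such effects.

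Members and lists were chosen with earlier results of these data known. Genes given on every array or by range were those past the threshold in the average or in at least 2 perfusion comparisons, plus all eIF2 alpha kinases and eIF4E-binding inhibitors; up to 3 members with the smallest p are named where nothing passed, and up to 5 genes per direction of the wider list. Of that list, 7 genes had no named probe. Alternatives covered scaling, background correction, the authors' values, the dim-probe filter, the choice of probe, slide and replicate blocks, and the arrays fitted.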

Additional observations from a re-analysis of the deposited data

Results flagged for a closer look

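Within the 6 groups, single arrays lay far from the other 4 of their group for 5 of 90 gene and group combinations examined (the 8 genes that passed in the average, the other eIF2 alpha kinases and the eIF4E-binding inhibitors), where the gap to the nearest array exceeded 0.71 of the group's range. Chance alone marks about 1 in 20 groups. Eif2b5 was at 0.45 on sucrose glucose replicate 1, with the nearest array at 0.62. Eif2b2 was at 2.69 on chow glucose replicate 5, with the nearest at 2.80. Eif2ak2 was at -0.81 on sucrose mannitol replicate 1, the array alone on its slide, with the nearest at -1.20. Eif2ak4 was at -2.06 on chow mannitol replicate 2 (nearest -1.72) and at -2.60 on sucrose non-perfused replicate 5, an array with noisy negative controls (nearest -1.95).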

How the results depend on the processing

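No called member changed sign under any alternative, and the 7 comparisons between buffers, diets or interactions gave 0 members under every one. The averaged perfusion count (8, beside 4095 of 18333 genes) was 2 in the authors' deposited values, beside 1140 of 18327 genes. It was 15 with the slide as a fixed block (6 higher, 9 lower, all 8 kept), beside 5166 of 18333 genes. There the members' share lay above that of all genes, unlike in the main fit. Leaving out 1 array gave 7 to 11 members, beside 3767 to 4260 genes. With a random slide block the averaged count was 12, beside 4988 genes. With normexp it was 6, beside 2548 genes (Eif1, Eif2ak3, Eif2b5 and Eif5b lost, Eif2ak1 and Eif4e gained). Without the 4 noisy arrays it was 7, beside 3357 genes. Chow mannitol (3) gave 1 in the authors' values and 2 to 3 without 1 array. Chow glucose (4) gave 0 in the authors' values and 2 with normexp, with no filter on dim probes, with only its own groups fitted and without the noisy arrays; leaving out 1 array gave 2 to 4, with 2 without chow non-perfused replicate 2 or chow glucose replicate 4. Sucrose mannitol (4) gave 0 in the authors' values, 2 with normexp, with no filter and with only its own groups, and 1 without the noisy arrays; leaving out 1 array gave 2 to 5, with 2 without sucrose non-perfused replicate 3 or 5 or sucrose mannitol replicate 3 or 4. Sucrose glucose (5) gave 1 in the authors' values, 2 with normexp and 3 with only its own groups; leaving out 1 array gave 3 to 5, with 3 without sucrose glucose replicate 1. Calls over all genes under each alternative are not given here for the separate comparisons. The lower counts there therefore cannot be read as particular to the members. In the average, calls over all genes fell as well, from 4095 to 1140 in the authors' values and to 2548 with normexp. The cause of these shifts was not tested. The authors' values moved the median of all genes by -0.11 (chow glucose) and 0.10 (sucrose glucose), the only such shifts over 0.1 among 4 settings of scaling or background. Same-numbered arrays did not deviate together (mean residual correlation -0.04, between -0.33 and 0.37), so the numbers pair nothing; with the replicate block the averaged count stayed 8 and the separate counts were 3, 3, 3 and 4. Arrays of a slide deviated together (0.20).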
